A study of Homo sapiens with 3 samples.

Results

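DMSO treated OVCAR3 cells in which both ALDH1A1 and SOX2 were detected were compared with DMSO treated cells in which neither was detected. OVCAR3 is an established line derived from a high-grade serous carcinoma of the ovary, and the study profiled it by single-cell RNA sequencing after 48 hours with DMSO (the solvent), with RAC1i (NSC23766, an inhibitor of the small GTPase RAC1) or with Combo (RAC1i together with EZH2i, the compound GSK126, whose target is the histone methyltransferase EZH2). There was 1 library per condition, the EZH2i library was not analysed here, and the treated cultures received their inhibitors in DMSO. The files hold unique molecular identifiers (UMIs), each marking 1 captured mRNA molecule, counted per gene and cell. Filters on genes (over 1000), mitochondrial UMIs (20% or less) and complexity (log10 genes over log10 UMIs, over 0.8) left 7531 of 10071 DMSO barcodes, and 4901 of these cells held 20000 or more UMIs. Of the 4901 cells, 1699 (34.7%, 95% interval 33.3 to 36.0) held at least 1 UMI of both genes and are called double-positive, 443 (9.04%) held neither and are called double-negative, 2523 (51.5%) held SOX2 only and 236 (4.82%) held ALDH1A1 only. Intervals of levels, ratios and shares are exact 95% intervals (Poisson for a level, conditional for a ratio and Clopper-Pearson for a share) and cover counting error only. With 1 library per condition no test was possible, and no difference below can be set against the variation between cultures.

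ALDH1A1 encodes a cytosolic aldehyde dehydrogenase that oxidises retinaldehyde to retinoic acid, and its enzyme activity is widely used to isolate stem-like cells from ovarian tumours. SOX2 encodes an HMG-box transcription factor that keeps embryonic stem cells pluripotent and is also used as a marker of ovarian cancer stem cells. Retinoic acid is carried to nuclear receptors, the RAR and RXR proteins, which control the genes they bind.

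The values that chose the cells were low counts. ALDH1A1 (ENSG00000165092, chr9:72900671-73080442, minus strand) was represented by a single UMI in 1002 of the 1699 double-positive cells (59.0%), by 2 UMIs in 405 and by 3 or more in 292, with at most 11 in a cell. SOX2 (ENSG00000181449, chr3:181711925-181714436, plus strand) had a median of 3 UMIs and at most 22, and 382 cells (22.5%) held 1. In 225 double-positive cells (13.2%) each gene was called from a single UMI. If both detections were independent within bins of 5000 UMIs, 1679 double-positive cells would be counted, against the 1699 found.

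Whether a cell was called positive depended on its depth. The double-positive share was 25.2% between 20000 and 25000 UMIs (195 of 773 cells) and 40.0% between 40000 and 45000 (220 of 550), while the double-negative share fell from 15.9% to 5.82% between the same bins. Just below the depth limit, between 15000 and 20000 UMIs, 102 of 522 kept cells (19.5%) held both genes. The median was 35926 UMIs per double-positive cell and 29229 per double-negative cell. Each double-negative cell was therefore paired in number with a double-positive cell drawn at random from the same bin of 5000 UMIs, giving 443 cells per group with means of 30869 and 30738 UMIs. A double-negative cell is one in which neither mRNA was captured, and a cell with few copies cannot be told apart from one with none. Barcodes that failed the filters held ALDH1A1 at 10.9 and SOX2 at 51.1 CPM (UMIs of a gene per 1000000 UMIs), against 19.7 and 76.8 in kept cells. No cell type lacking these genes exists in a culture of 1 line, so the part of free RNA in a single UMI was not tested.

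The matched groups were alike in quality and in lineage markers. Median mitochondrial shares were 6.70% in double-positive and 6.77% in double-negative cells, and after each cell was thinned to 20000 UMIs the cells held medians of 4732 and 4723 genes. All 7 markers of epithelial and serous cells (EPCAM, PAX8, WT1, KRT8, KRT18, KRT19 and MUC16) held 20 CPM or more and none had a log2 ratio of 0.32 or more in size, the fold used below. Of the 7, 6 were above 0. WT1, with a log2 ratio of 0.28, reached 0.40 in another random draw of double-positive cells and 0.52 at 30000 or more UMIs. The 4 fibroblast markers summed to 6.36 CPM in double-positive and 5.65 CPM in double-negative cells, of which COL1A1 gave 83 and 75 UMIs, COL1A2 and LUM at most 4, and DCN was at 0 in both groups. The 3 endothelial markers summed to 1.10 and 1.248 CPM. The 4 leukocyte markers summed to 41.6 and 36.1 CPM, almost all of it CD74 (41.3 and 35.8 CPM), and PTPRC and CD3E were at 0 in both groups. Doublets were not called or removed. Between the libraries 30 barcodes were shared by DMSO and RAC1i, 7 of them double-positive, and 29 by DMSO and Combo, 1 of them double-positive.

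Expression was summed over the 443 cells of a group and given as CPM. A gene was tested where either group reached 20 CPM, and was called past the fold at a log2 ratio of 0.32 or more in size. Of the 5932 genes tested, ALDH1A1 and SOX2 left out, 128 (2.16%) were past the fold and higher in double-positive cells and 110 (1.85%) were past it and lower. With 5 other random draws of double-positive cells, 77 to 85 of the 128 and 70 to 75 of the 110 were past the fold again. At a stricter fold of 1.5, 17 genes (0.287%) were higher and 16 (0.27%) were lower. The median log2 ratio was −0.00454, 48.6% of genes were above 0 and 51.4% below, and 90% of genes lay between −0.22 and 0.24 (5th and 95th percentile). Ratios ran from 0.52 for PLAU to 1.97 for CPM.

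**Figure D1:**
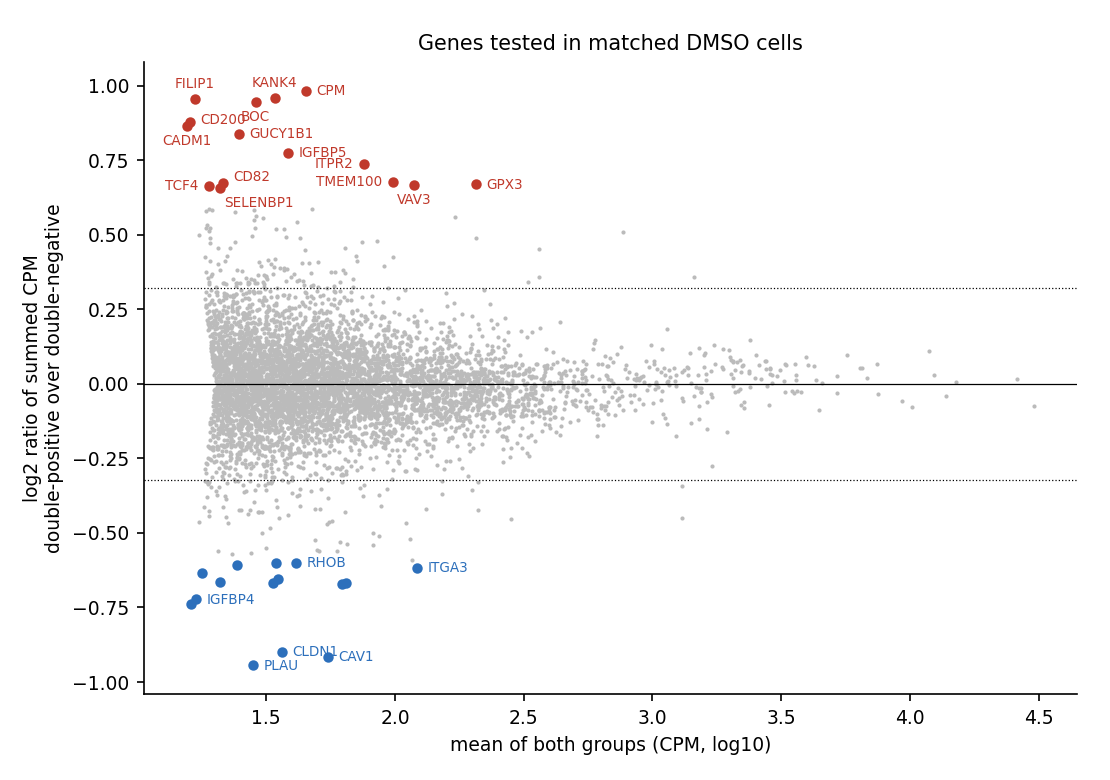
Log2 ratio of summed CPM in double-positive over double-negative DMSO cells (y axis) against the mean level of both groups in CPM on a log10 scale (x axis), 1 point per gene over 5932 genes, 443 cells per group. The 15 genes with the highest ratio are red and named, the 15 with the lowest are blue (6 named), and dotted lines mark a log2 ratio of 0.32 in size. Most points lie between the dotted lines, and the gene CPM has the highest ratio.

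The highest ratio was that of CPM, the gene of the membrane-bound carboxypeptidase M, which was at 59.9 CPM in double-positive and 30.3 CPM in double-negative cells (ratio 1.97, 1.75 to 2.23). After thinning it was detected in 46.5% of double-positive cells (41.8 to 51.3) and in 33.6% of double-negative cells (29.2 to 38.2). BOC, a co-receptor for Hedgehog ligands, was at 37.9 and 19.7 CPM (ratio 1.92, 1.66 to 2.24). CD200, a surface glycoprotein that dampens immune cells through its receptor, was at 20.8 and 11.3 CPM (1.84, 1.504 to 2.25), and CADM1, an adhesion molecule of the immunoglobulin superfamily, at 20.04 and 11.02 CPM (1.82, 1.49 to 2.23). The transmembrane protein gene TMEM100 was at 120.6 and 75.3 CPM (1.6004, 1.48 to 1.73), and CD82, a tetraspanin known as a suppressor of metastasis, at 26.3 and 16.5 CPM (1.59, 1.35 to 1.89). BOC and TMEM100 were also detected in more double-positive cells at equal depth, BOC in 44.02% against 26.6% and TMEM100 in 66.8% against 52.6%.

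Further genes of the 15 with the highest ratios act in signalling or at the cytoskeleton. VAV3, a guanine nucleotide exchange factor that activates small GTPases including RAC1, was at 146 and 91.7 CPM (ratio 1.59, 1.48 to 1.71) and was detected in 88.3% against 76.5% of thinned cells. ITPR2, a receptor that releases calcium from the endoplasmic reticulum, was at 94.5 and 56.6 CPM (1.67, 1.53 to 1.83). GUCY1B1, a subunit of the soluble guanylate cyclase that senses nitric oxide, was at 31.7 and 17.7 CPM (1.79, 1.52 to 2.10). KANK4 and FILIP1, both linked to the actin cytoskeleton, had ratios of 1.94 (1.69 to 2.23) and 1.94 (1.59 to 2.37). The remaining genes of the 15 were GPX3, a secreted glutathione peroxidase, at 253 and 159 CPM (1.59, 1.51 to 1.68), IGFBP5, a binding protein for insulin-like growth factors (1.71, 1.51 to 1.94, but a log2 ratio of 0.0027 at 30000 or more UMIs), SELENBP1, a selenium-binding protein, at 25.6 and 16.2 CPM (1.58, 1.33 to 1.87), and TCF4, a basic helix-loop-helix transcription factor (1.58, 1.32 to 1.90).

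The lowest ratio was that of PLAU, the urokinase protease that activates plasminogen, which was at 19.2 CPM in double-positive and 37.0 CPM in double-negative cells (ratio 0.52, 0.45 to 0.60). CAV1, the main coat protein of caveolae, was at 38.1 and 71.9 CPM (0.53, 0.48 to 0.59), and was detected in 41.3% against 58.9% of thinned cells. CLDN1, a tight junction claudin, was at 25.4 and 47.3 CPM (0.54, 0.47 to 0.61). CLDN16, its neighbour on chromosome 3 on the opposite strand, was at 47.9 and 76.2 CPM (0.63, 0.57 to 0.69), although nearly as many double-positive as double-negative cells held it after thinning (48.5% and 50.3%). ITGA3, the alpha chain of a laminin-binding integrin, was at 96.2 and 148 CPM (0.65, 0.61 to 0.70).

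The other genes of the 15 lowest included FSCN1, which bundles actin filaments (12.1 and 20.3 CPM, ratio 0.60, 0.49 to 0.73, with a log2 ratio of −0.74 here and −1.48 where both genes were called from 2 or more UMIs), RHOB, a small GTPase (0.66, 0.58 to 0.74), and AJUBA, a LIM protein that binds LATS kinases of the Hippo pathway (0.66, 0.58 to 0.75). SLC7A5, the light chain of the LAT1 amino acid transporter, was at 49.7 and 78.9 CPM (0.63, 0.57 to 0.69), and TRIB3, a pseudokinase induced by ATF4, at 16.2 and 25.6 CPM (0.63, 0.53 to 0.75). CDKN2B, the inhibitor p15 of CDK4 and CDK6, was at 19.2 and 29.3 CPM (0.66, 0.56 to 0.77). TIMP3, IGFBP4, PLCB4 and STC2 completed the 15, with ratios between 0.61 and 0.65. Of the 15 highest genes 8, and of the 15 lowest 6, reached 20 CPM in 1 of the groups only, as did 5.12% of all genes tested, so that the minimum let them in through the group where they were high. These 30 genes were picked as the most extreme of 5932 on these cells, so their intervals, which were all clear of 1, are given as a description, and ratios of genes picked in this way tend to be smaller in other cells.

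The ratios were recalculated within 6 bins of 5000 UMIs that held at least 20 cells of both groups, using all 1448 double-positive and 434 double-negative cells of these bins. The double-negative cells are the same ones on which the genes were picked, and the double-positive cells drawn for the match are among those used. Agreement in direction was thus partly fixed in advance, so this is a check on depth and not on new cells. The share of all genes with 1 direction in every bin is not given here. All 15 lowest genes were lower in every bin, and 13 of the 15 highest were higher in every bin. The exceptions were IGFBP5, with a ratio of 0.58 between 40000 and 45000 UMIs, and GPX3, with 0.83 between 45000 and 50000 UMIs. Both had their highest ratio between 20000 and 25000 UMIs, at 4.31 for IGFBP5 and 2.08 for GPX3. KANK4 ranged from 1.55 to 2.34, and VAV3 from 1.37 to 1.72. With all bins combined by the Mantel-Haenszel ratio, which uses every double-positive cell that shared a bin with a double-negative cell, 107 genes (1.8%) were past the fold and higher and 86 (1.45%) lower.

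**Figure D2:**
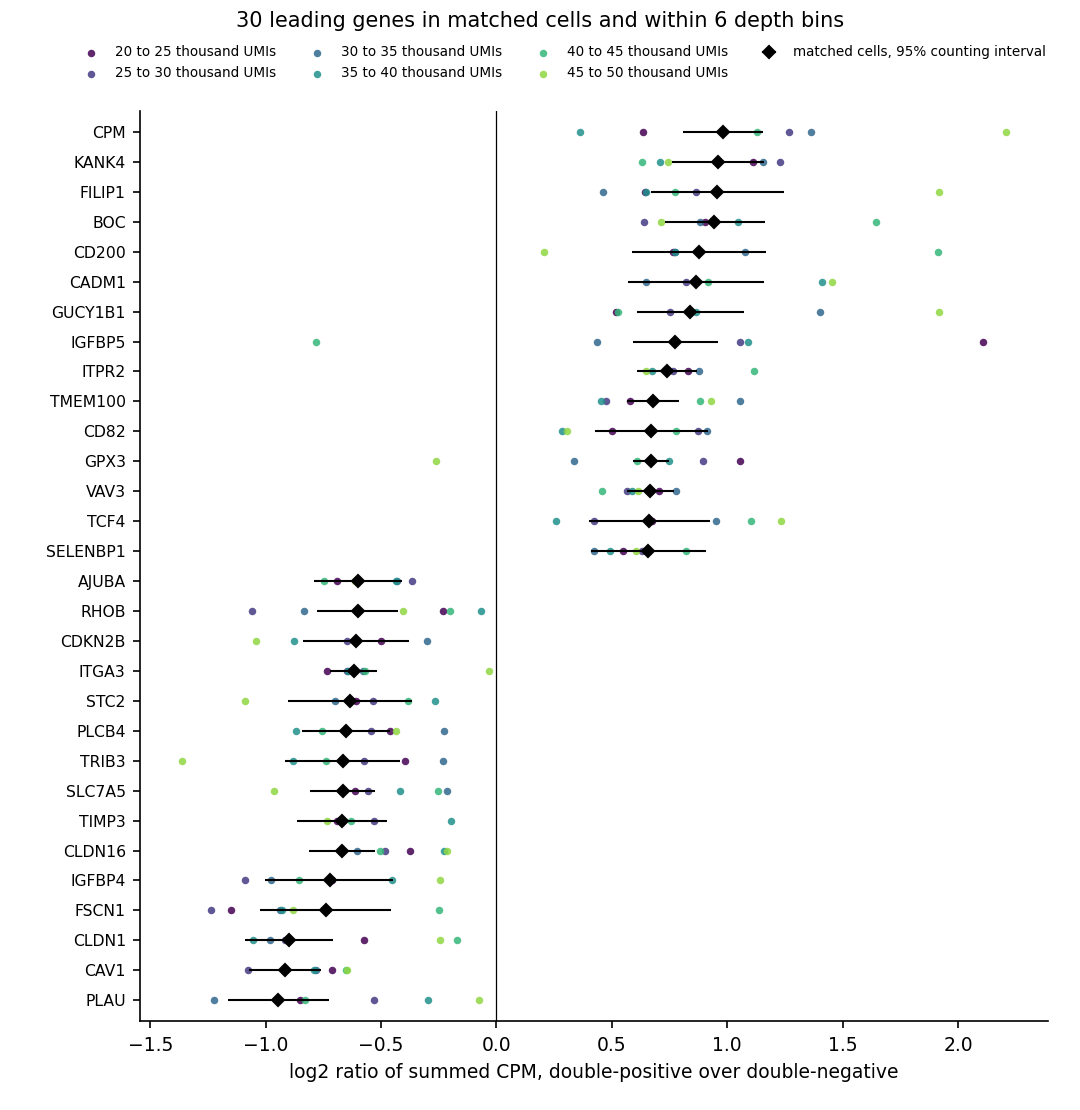
Log2 ratio of summed CPM in double-positive over double-negative DMSO cells for the 15 highest and 15 lowest genes, with black diamonds and 95% counting intervals for the 443 matched cells per group and coloured points for the 6 depth bins. Coloured points of all 15 lowest genes lie left of 0, and IGFBP5 and GPX3 each have 1 point left of 0 among the highest genes.

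Promoters of these genes were read from RefSeq (GRCh38.p14), from 250 bases before to 50 bases after the start, written 5′ to 3′ along the gene and matched by symbol. RefSeq gives 1 start per gene, which among the promoters printed here lies, for ALDH1A1, VAV3 and TCF4, well inside the gene span of GENCODE. Promoters were found for 11 of the 15 highest and 12 of the 15 lowest genes. They were searched on both strands for 3 short motifs, AACAAT (the core recognised by SOX proteins), GGAATG (TEAD) and AGGTCA (a hexamer bound by many nuclear receptors), and matches of different motifs were counted separately. The SOX core was found in the promoters of 4 of the 11 highest genes (36.4%), of 0 of the 12 lowest, of 4.51% of 4852 promoters of genes tested and of 10.3% of all 27195 promoters. Of these 4 genes, VAV3 and TCF4 have starts well inside the gene span, so these stretches may not be the promoters used in these cells. The highest genes were picked as extremes, 8 of the 15 with the minimum level reached in 1 group only. The difference in share was not tested. The TEAD motif was found in 2 of the 11 and 1 of the 12, against 10.8% of genes tested, and the nuclear receptor hexamer in 1 of the 11 and 1 of the 12, against 9.05%. The 4 promoters with the SOX core are shown with those of the genes that define the cells, with every match to any of the 3 motifs in capitals on the strand printed.

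ALDH1A1 (chr9:72953004-72953303, minus strand): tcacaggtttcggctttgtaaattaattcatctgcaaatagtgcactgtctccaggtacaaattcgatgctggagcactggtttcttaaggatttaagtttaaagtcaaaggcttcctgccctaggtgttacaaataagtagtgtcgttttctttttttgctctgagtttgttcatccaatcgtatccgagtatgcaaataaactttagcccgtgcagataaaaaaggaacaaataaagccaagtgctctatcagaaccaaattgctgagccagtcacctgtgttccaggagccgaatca

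SOX2 (chr3:181711675-181711974, plus strand): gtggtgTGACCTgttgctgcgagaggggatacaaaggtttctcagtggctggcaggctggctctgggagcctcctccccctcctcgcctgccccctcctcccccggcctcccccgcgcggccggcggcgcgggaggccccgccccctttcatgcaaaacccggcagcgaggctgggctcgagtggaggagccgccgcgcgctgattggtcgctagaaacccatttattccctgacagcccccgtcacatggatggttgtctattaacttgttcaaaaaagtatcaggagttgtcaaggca

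FILIP1 (chr6:75493751-75494050, minus strand): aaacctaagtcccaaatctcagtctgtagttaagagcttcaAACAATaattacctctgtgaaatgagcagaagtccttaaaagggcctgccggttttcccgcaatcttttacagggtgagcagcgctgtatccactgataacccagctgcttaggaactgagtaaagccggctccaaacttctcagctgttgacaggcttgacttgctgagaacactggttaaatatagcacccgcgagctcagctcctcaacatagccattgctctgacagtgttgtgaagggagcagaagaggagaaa

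GUCY1B1 (chr4:155758771-155759070, plus strand): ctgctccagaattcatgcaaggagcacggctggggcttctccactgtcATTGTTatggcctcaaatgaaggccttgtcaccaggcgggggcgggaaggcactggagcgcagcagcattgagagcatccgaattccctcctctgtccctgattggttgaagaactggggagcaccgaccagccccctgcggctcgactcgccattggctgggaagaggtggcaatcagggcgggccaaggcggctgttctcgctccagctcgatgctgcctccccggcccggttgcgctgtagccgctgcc

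VAV3 (chr1:107688450-107688749, minus strand): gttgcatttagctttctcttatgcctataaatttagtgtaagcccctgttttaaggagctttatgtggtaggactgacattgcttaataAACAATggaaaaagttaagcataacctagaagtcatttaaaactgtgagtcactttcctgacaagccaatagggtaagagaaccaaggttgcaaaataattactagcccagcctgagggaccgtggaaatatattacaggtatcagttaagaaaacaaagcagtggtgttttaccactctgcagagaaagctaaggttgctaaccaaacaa

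TCF4 (chr18:55635908-55636207, minus strand): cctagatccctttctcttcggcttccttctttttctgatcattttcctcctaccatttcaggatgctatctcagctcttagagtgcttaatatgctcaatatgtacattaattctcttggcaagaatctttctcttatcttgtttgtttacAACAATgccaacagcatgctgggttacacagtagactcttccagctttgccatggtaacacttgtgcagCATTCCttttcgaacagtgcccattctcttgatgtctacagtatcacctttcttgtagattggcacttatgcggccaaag

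The ALDH1A1 promoter held none of the 3 motifs and the SOX2 promoter held 1 nuclear receptor hexamer. A match is a run of 6 letters and not a measured site.

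Other genes of the families of the defining pair differed little. Of the ALDH family 5 members passed the level filter and none was past the fold, with a median log2 ratio of 0.07. Mitochondrial ALDH2, which clears acetaldehyde, was below the filter at 17.0 and 12.1 CPM (ratio 1.41, 1.15 to 1.73). Of the SOX family SOX4, SOX11, SOX12 and SOX17 passed the filter, with a median log2 ratio of 0.16. SOX11 was at 55.2 and 44.5 CPM (1.24, 1.11 to 1.38), a log2 ratio of 0.31 that lay between 0.09 and 0.26 in 5 other draws and at 0.0093 with 2 or more UMIs of both genes. SOX4 had a log2 ratio of 0.23, and between 0.17 and 0.32 in the other draws. SOX17, at 0.09, was below 0 in 4 of 18 alternatives (−0.0975 with 2 or more UMIs). SOX5 lay below the filter at 13.2 and 8.89 CPM (1.48, 1.17 to 1.88), and SOX9 at 6.14 and 7.78 CPM. Most other members below the filter are not given here. With no minimum level, 2079 of 15631 genes were past the fold and higher and 1778 lower, a larger share than among genes tested.

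None of the 4 stem cell markers tested was past the fold. CD24 was at 471 and 407 CPM (ratio 1.16, 1.11 to 1.20), EPCAM at 349 and 344 CPM, BMI1 at 21.1 and 21.6 CPM and ALCAM at 30.1 and 37.4 CPM (0.81, 0.71 to 0.92), and the median log2 ratio was −0.00325. LGR5, the receptor for R-spondins that marks stem cells of the gut, was below the filter and rare at 2.85 and 1.03 CPM (2.77, 1.47 to 5.53). Most other markers below the filter are not given, and with no minimum level 2079 of 15631 genes were past the fold and higher. MYC was at 13.2 and 16.2 CPM and CD44 at 1.83 and 2.50 CPM.

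Of 28 genes of the retinoid pathway 7 passed the filter, 1 of which was past the fold and higher (2.16% over all genes), with a median log2 ratio of 0.02. This gene was DHRS3, a reductase that turns retinaldehyde back to retinol and is induced by retinoic acid, at 28.7 and 19.2 CPM (ratio 1.49, 1.27 to 1.75). RDH10, the dehydrogenase that makes retinaldehyde, was below the filter at 10.7 and 7.49 CPM (1.43, 1.10 to 1.85). Past the fold and higher were 2079 of 15631 genes with no minimum level. The carrier CRABP2 was at 234 and 232 CPM (1.01, 0.96 to 1.06), and the receptors RARA, RARG, RXRA and RXRB, all below the filter, had ratios between 1.02 and 1.14 with intervals that held 1.

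Genes of the fallopian secretory epithelium and of serous cancer were more often above than below 0, with 11 of 16 tested above 0, 3 past the fold and higher, 2 lower and a median log2 ratio of 0.18 (over all genes 48.6% were above 0, 2.16% past the fold and higher and 1.85% lower). CLU, the secreted chaperone clusterin, was at 902 and 633 CPM (ratio 1.42, 1.38 to 1.46). The value for CLU depended on the cells drawn, with log2 ratios of 0.31 to 0.47 in 5 other draws against 0.51 here and of 0.22 without matching, and it was short of the fold in 4 of 18 alternatives. The other genes past the fold and higher were SLPI, short of the fold in 14 of 18 alternatives and in all 5 other draws, and MUC1, short of it in 7. KLK6, a secreted serine protease, was at 54.5 and 73.4 CPM (0.74, 0.67 to 0.82), and KRT7 was the other gene past the fold downwards. The lineage factor PAX8 had a log2 ratio of 0.19 and WT1 of 0.28.

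**Figure D3:**
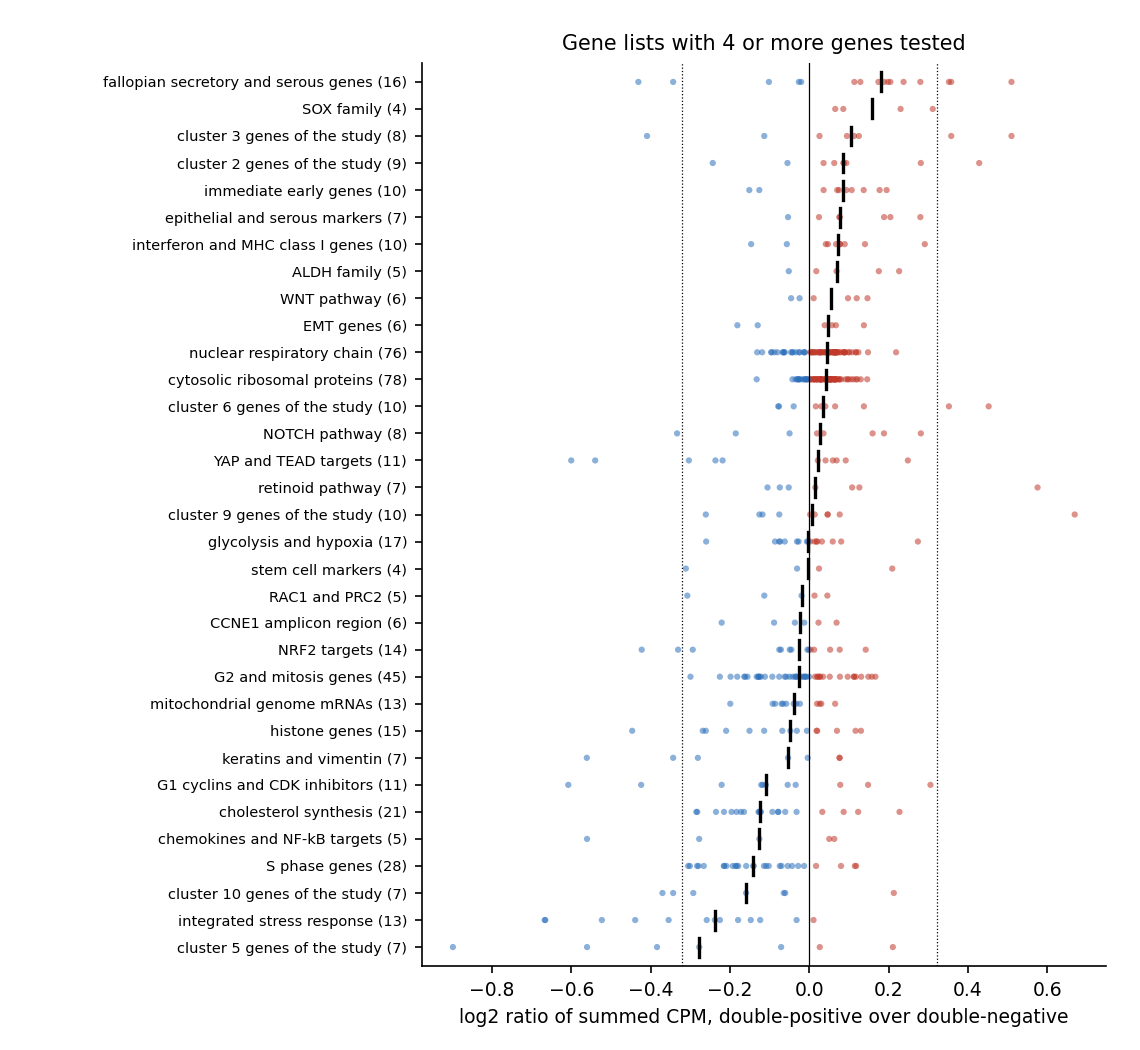
Log2 ratio of summed CPM in double-positive over double-negative DMSO cells (x axis) for the tested genes of each list (1 point per gene, number in brackets) with the list's median as a black bar and dotted lines at a log2 ratio of 0.32 in size. The integrated stress response has 12 of 13 points left of 0, and the right-most point of the retinoid pathway is DHRS3.

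Targets of the integrated stress response, the ATF4 program set off by amino acid shortage and misfolded protein, lay lower in double-positive cells. Of 13 tested, 12 were below 0 and 5 were past the fold and lower, with none higher, and the median log2 ratio was −0.24. Over all genes 51.4% were below 0, 1.85% were past the fold and lower, 2.16% higher, and the median was −0.00454. The 5 were SLC7A5, TRIB3, DDIT3, DDIT4 and SLC3A2, the heavy chain that partners SLC7A5, and PSAT1, an enzyme of serine synthesis, was the exception at 127 and 126 CPM. SLC3A2, DDIT4 and DDIT3 were short of the fold in 4, 2 and 1 of 18 alternatives. Summed, the 18 genes of the list stood at 1698 and 1969 CPM (ratio 0.86, 0.85 to 0.88).

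Genes of DNA replication lay slightly lower, with 24 of 28 S phase genes below 0 (51.4% over all genes), none past the fold and a median log2 ratio of −0.14. PCNA, the sliding clamp, was lowest at 55.2 and 68.2 CPM (ratio 0.81, 0.73 to 0.89). Genes of G2 and mitosis had a median of −0.03, with 29 of 45 below 0, but their median was 0.06 with all cells combined over bins. G1 regulators had 2 of 11 past the fold, both lower, CDKN2B and CCND1 (1.85% over all genes), and a median of −0.11. Cholesterol synthesis genes had a median of −0.12 with 17 of 21 below 0 and none past the fold.

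In the next lists, of signalling, stress and keratin genes, every gene past the fold was lower. These were 2 of 11 tested for YAP and TEAD, 2 of 7 for keratins and vimentin and 1 of 8 for the NOTCH pathway. For NRF2 targets they were 2 of 14, and for chemokines and NF-kB targets 1 of 5. Over all genes 1.85% were past the fold and lower and 2.16% higher. The list of YAP and TEAD, which act at the end of the Hippo pathway, had a median log2 ratio of 0.02 over 11 tested genes. Of these genes 6 were above 0 and 5 below. For this list alone the members were also split. The 4 tested genes of the factors themselves had a median of 0.06 (YAP1 0.09, TEAD1 0.02), and the 7 targets had a median of −0.24. Of the targets 5 were below 0 and 2 were past the fold and lower, AJUBA and CCN1, and CCN2 had −0.24. Of the keratins and vimentin, KRT80 (41.0 and 60.5 CPM, ratio 0.68, 0.61 to 0.76) and KRT7 were lower of 7 tested. NOTCH pathway genes had a median of 0.03, with DLL3 past the fold downwards (28.4 and 35.8 CPM, but short of the fold in 7 of 18 alternatives) and HES1 at 34.4 and 28.3 CPM. Of the NRF2 targets SLC7A11 and TXNRD1 were past the fold of 14, both lower, but TXNRD1 was short of it in 14 alternatives and SLC7A11 in 4, and IER3 was the single one of 5 chemokine and NF-kB targets (48.3 and 71.2 CPM, ratio 0.68, 0.61 to 0.75).

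The remaining lists held no gene past the fold, or 1. WNT and EMT genes, immediate early genes, glycolysis and hypoxia, interferon and MHC class I genes, metallothioneins, ciliated cell genes and the 19q12 region around CCNE1 had none, and the histone genes had HIST1H1D, lower but short of the fold in 7 of 18 alternatives. The 76 nuclear genes of the respiratory chain and the 78 cytosolic ribosomal proteins had medians of 0.04 and 0.04, and the 13 mitochondrial mRNAs had −0.04. RAC1, the target of RAC1i, was at 427 and 462 CPM (ratio 0.92, 0.89 to 0.96) and EZH2, the target of EZH2i, at 26.8 and 33.1 CPM (0.81, 0.70 to 0.93), neither past the fold.

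Top genes that the study gave for its cell clusters were also compared. Of cluster 5, 3 of 7 tested were past the fold and lower (CLDN1, IER3 and CD70, of which CD70 was short of the fold in 10 of 18 alternatives) with a median log2 ratio of −0.28, and of cluster 10, 2 of 7 were lower (KRT7 and PPP1R14A, short of the fold in 2 and 4) with a median of −0.16. Of cluster 3, 2 of 8 were higher (CLU and SLPI) and 1 lower (GPRC5A). Clusters 2, 6 and 9 had 1 (ID2), 2 (CP and MUC1) and 1 (GPX3) genes past the fold, all higher. Over all genes 2.16% were past the fold and higher and 1.85% lower. These lists were chosen by the study on cells that include the present ones and are not independent of them.

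The levels of the 30 genes were then read in cells with only 1 of the defining genes. Cells of all 4 kinds were drawn in equal numbers from each depth bin, 234 per group. The double-negative cells came from those on which the 30 genes had been picked as extreme. Their difference from the other kinds was thus partly fixed in advance for these genes. GPX3 was highest in double-positive cells (265 CPM), then in ALDH1A1 only (211 CPM), SOX2 only (167 CPM) and double-negative cells (137 CPM). The intervals did not overlap, but they cover counting error only, and the order was read in the cells drawn here. The log2 ratio of GPX3 between double-positive and double-negative cells, 0.67 in the main match, ran from 0.42 to 0.78 with other random draws. ITPR2 was at 97.6 and 91.6 CPM in both kinds of cell with ALDH1A1, and at 65.0 and 52.1 CPM in SOX2 only and double-negative cells. CD82 and GUCY1B1 had the same order, with 27.01 and 24.1 CPM against 16.2 and 15.5 for CD82, and 29.98 and 28.1 CPM against 18.6 and 14.9 for GUCY1B1. In the match both reached the minimum level in double-positive cells only, so their low double-negative levels were partly fixed by the choice of genes.

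Other genes had other orders. IGFBP5 was at 52.8 CPM in double-positive cells, 29.9 in ALDH1A1 only, 39.2 in SOX2 only and 32.7 in double-negative cells, and the gene CPM was at 55.2, 42.8, 46.1 and 31.8 CPM, where the intervals of double-positive and SOX2 only cells overlapped. The order of IGFBP5 was read in this draw, and its log2 ratio of double-positive over double-negative cells was 0.0027 at 30000 or more UMIs. SELENBP1 was at 24.8, 23.7 and 24.5 CPM in the groups with either gene, whose intervals overlapped, and at 15.5 CPM in double-negative cells. In the match SELENBP1 reached the minimum level in double-positive cells only, so its low double-negative level was partly fixed by the choice of genes. VAV3 was at 128, 125, 109 and 89.7 CPM, so that the neighbouring ALDH1A1 only and double-positive groups did not differ beyond their counting intervals. Among the lowest genes CDKN2B was at 20.7 and 18.9 CPM in cells with ALDH1A1 and at 30.2 and 31.8 CPM in cells without it. In the match CDKN2B reached the minimum level in double-negative cells only, so its high double-negative level was partly fixed by the choice of genes. CLDN1 was at 24.4 CPM in double-positive, 39.4 in ALDH1A1 only, 30.3 in SOX2 only and 51.96 in double-negative cells. ALDH1A1 itself was at 50.6 CPM in double-positive and 57.2 CPM in ALDH1A1 only cells, and SOX2 was at 88.3 CPM in double-positive and 90.4 CPM in SOX2 only cells.

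**Figure D4:**
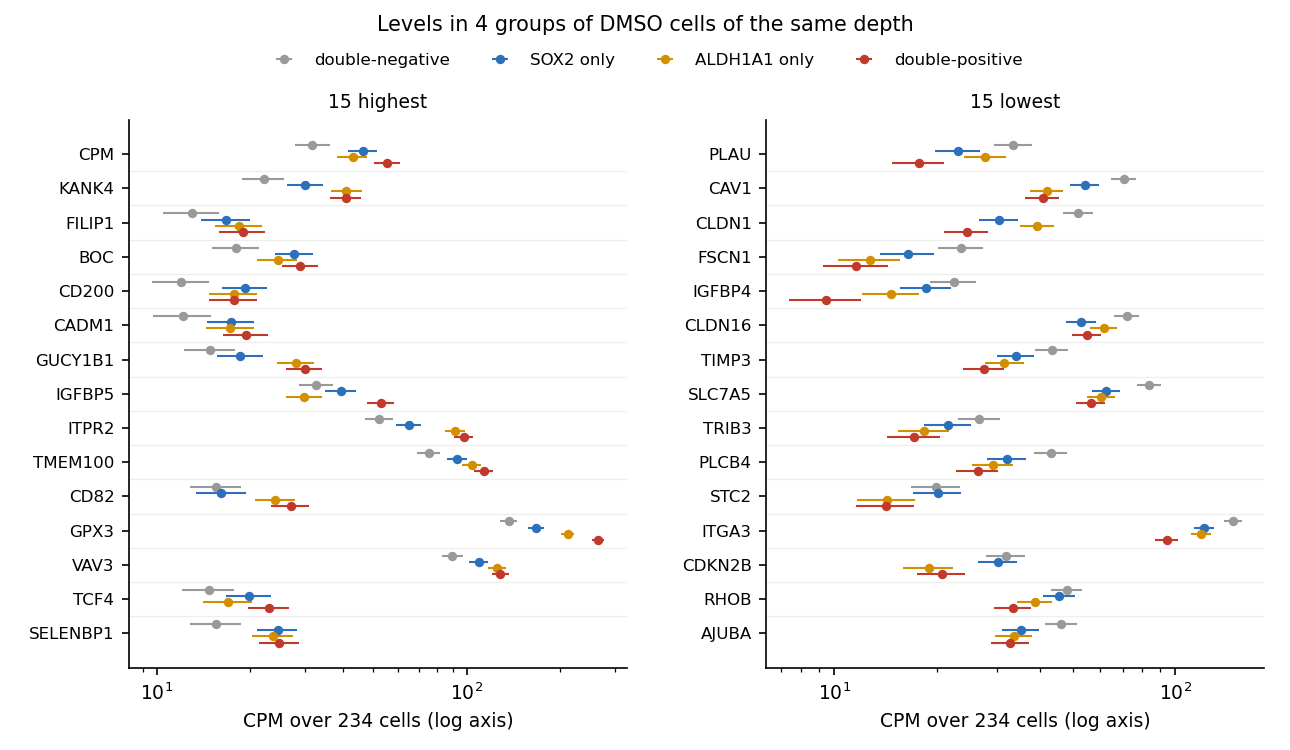
Level in CPM (log axis) of the 15 highest and 15 lowest genes in double-negative, SOX2 only, ALDH1A1 only and double-positive DMSO cells, 234 cells per group drawn from the same depth bins, with 95% counting intervals. GPX3, ITPR2, CD82 and GUCY1B1 are higher in both groups with ALDH1A1, and IGFBP5 is highest in the double-positive cells of this draw. CD82 and GUCY1B1 passed the minimum level through double-positive cells only. The IGFBP5 difference was not seen at 30000 or more UMIs.

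The 1256 double-positive cells that had not been drawn for the match allowed a comparison among members, free of the double-negative cells. Cells with 3 or more UMIs of ALDH1A1 were set against cells with 1, matched on depth, 217 per arm, and likewise 247 per arm for SOX2. Of the 15 highest genes, 13 were higher with more ALDH1A1 and in 9 the interval was clear of 1, where 43.6% of all genes tested were above 1. Likewise 13 were higher with more SOX2, 10 with an interval clear of 1, where 59.1% of all genes were above 1. The share of all genes with an interval clear of 1 is not given here, so the 9 and 10 cannot be set against it. GPX3 was higher with more ALDH1A1 (ratio 1.53, 1.44 to 1.63) and lower with more SOX2 (0.90, 0.85 to 0.96), whereas TCF4 was at 0.95 (0.77 to 1.16) and 1.43 (1.16 to 1.76). KANK4 and ITPR2 were higher with both, at 1.57 (1.37 to 1.81) and 1.51 (1.37 to 1.66) for ALDH1A1 and at 1.39 (1.20 to 1.62) and 1.26 (1.14 to 1.39) for SOX2.

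The gene CPM had ratios of 0.94 (0.83 to 1.07) with more ALDH1A1 and 1.43 (1.252 to 1.63) with more SOX2 among these cells. Of the 15 lowest genes, 12 were lower with more ALDH1A1 and 12 with more SOX2, with 4 and 7 intervals clear of 1, where most genes were below 1 for ALDH1A1 (43.6% above 1) and most above for SOX2 (59.1%). For the 4 and 7 intervals, too, the share over all genes is not given. IGFBP4 was lowest with more ALDH1A1 (0.53, 0.40 to 0.71) and PLAU with more SOX2 (0.71, 0.58 to 0.88). CLDN16 went in opposite directions, at 1.22 (1.08 to 1.38) with more ALDH1A1 and 0.76 (0.67 to 0.86) with more SOX2. In this comparison 1.81% of 6092 genes were past the fold and higher and 1.81% lower for ALDH1A1, and 3.84% and 0.695% of 6039 for SOX2.

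Across the 886 matched cells thinned to equal depth, the genes whose counts ranked most like those of ALDH1A1 were VAV3 (Spearman correlation 0.23), KANK4 (0.21), CLU (0.21), BOC (0.20), ITPR2 (0.18), PGM2L1 (0.18), IL1R1 (0.17), SERF2 (0.16), GPX3 (0.16) and NPC2 (0.16). For SOX2 they were VAV3 (0.23), CPM (0.19), RAB11FIP4 (0.18), PGM2L1 (0.18), BOC (0.17), ITPR2 (0.17), KANK4 (0.17), PNISR (0.17), SRGAP3 (0.16) and TSC22D1 (0.16). These values are weak, the cells were chosen on both genes and come from 1 library, and they are given as a description.

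The same rule was applied to the treated libraries, which hold other cells. Both genes were detected in 125 of 5342 RAC1i cells with 20000 or more UMIs (2.34%) and in 117 of 4931 Combo cells (2.37%), against 106 and 85.2 if both detections were independent within depth bins, while 3512 (65.7%) and 3328 (67.5%) held neither. The level of SOX2 was 18.3 CPM (RAC1i) and 15.1 CPM (Combo) against 76.8 CPM in DMSO, and ALDH1A1 at 2.32 and 1.90 CPM against 19.7 CPM. At such levels a positive call rests on very few UMIs, and failed barcodes of the treated libraries held ALDH1A1 at 2.16 CPM (RAC1i) and 2.24 CPM (Combo), as much as the kept cells. SOX2 in these failed barcodes was at 16.6 CPM (RAC1i) and 10.9 CPM (Combo), against the 18.3 and 15.1 CPM of kept cells. Past the fold were 12.0% of genes higher and 10.7% lower in RAC1i, and 10.7% and 14.1% in Combo. These shares rest on 125 and 117 cells per group, against 443 in DMSO, and so hold more counting error.

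Of the 15 highest genes in DMSO, 12 were higher in double-positive cells in RAC1i (7 intervals clear of 1), where 48.6% of all genes were above 1, and 12 in Combo (6 clear), where 44.2% were. The share of all genes with an interval clear of 1 is not given for these libraries, so the 7 and 6 cannot be set against it. GPX3 was at 142 and 87.4 CPM in RAC1i (ratio 1.62, 1.43 to 1.84) and at 135 and 69.2 CPM in Combo (1.96, 1.70 to 2.25). TMEM100 was at 8.91 and 3.06 CPM in RAC1i (2.91, 1.56 to 5.79) and at 11.5 and 1.36 CPM in Combo (8.46, 3.63 to 24.1). It was below the minimum of 20 CPM in both treated libraries, so these ratios rest on few UMIs. CADM1 had ratios of 1.87 (1.11 to 3.20) and 1.99 (1.21 to 3.36). IGFBP5 was below 1 in both, at 0.69 (0.41 to 1.15) and 0.75 (0.47 to 1.20), and so was SELENBP1 (0.92, 0.60 to 1.39, and 0.73, 0.50 to 1.07).

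Of the 15 lowest genes in DMSO, 11 were below 1 in RAC1i, 2 with an interval clear of 1, and 5 were below 1 in Combo, 1 with an interval clear of 1, beside the shares of all genes above 1 just given (48.6% and 44.2%). For these intervals, too, the share over all genes is not given. With all double-negative cells combined over depth bins, 9 of the 15 lowest were below 1 in RAC1i, with a median ratio of 0.93, and 5 in Combo, where 42.9% and 42.0% of all genes were above 1, and of the 15 highest 12 and 13 were above 1. CLDN1 was at 33.3 and 22.7 CPM in RAC1i (ratio 1.46, 1.13 to 1.90, but 1.02 with all double-negative cells combined over depth bins) and at 37.4 and 15.4 CPM in Combo (2.43, 1.82 to 3.27, and 1.82 with all cells). CAV1 was higher as well, at 96.1 and 78.7 CPM (1.22, 1.06 to 1.41) and at 91.1 and 54.3 CPM (1.68, 1.43 to 1.98), and so was CLDN16 (2.11, 1.62 to 2.76, and 2.52, 1.83 to 3.53). AJUBA was lower in Combo (0.79, 0.67 to 0.93) and IGFBP4 and SLC7A5 in RAC1i (0.70, 0.52 to 0.94, and 0.74, 0.58 to 0.95). The integrated stress response list had medians of 0.05 in RAC1i and 0.03 in Combo on the log2 scale over 11 genes each.

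**Figure D5:**
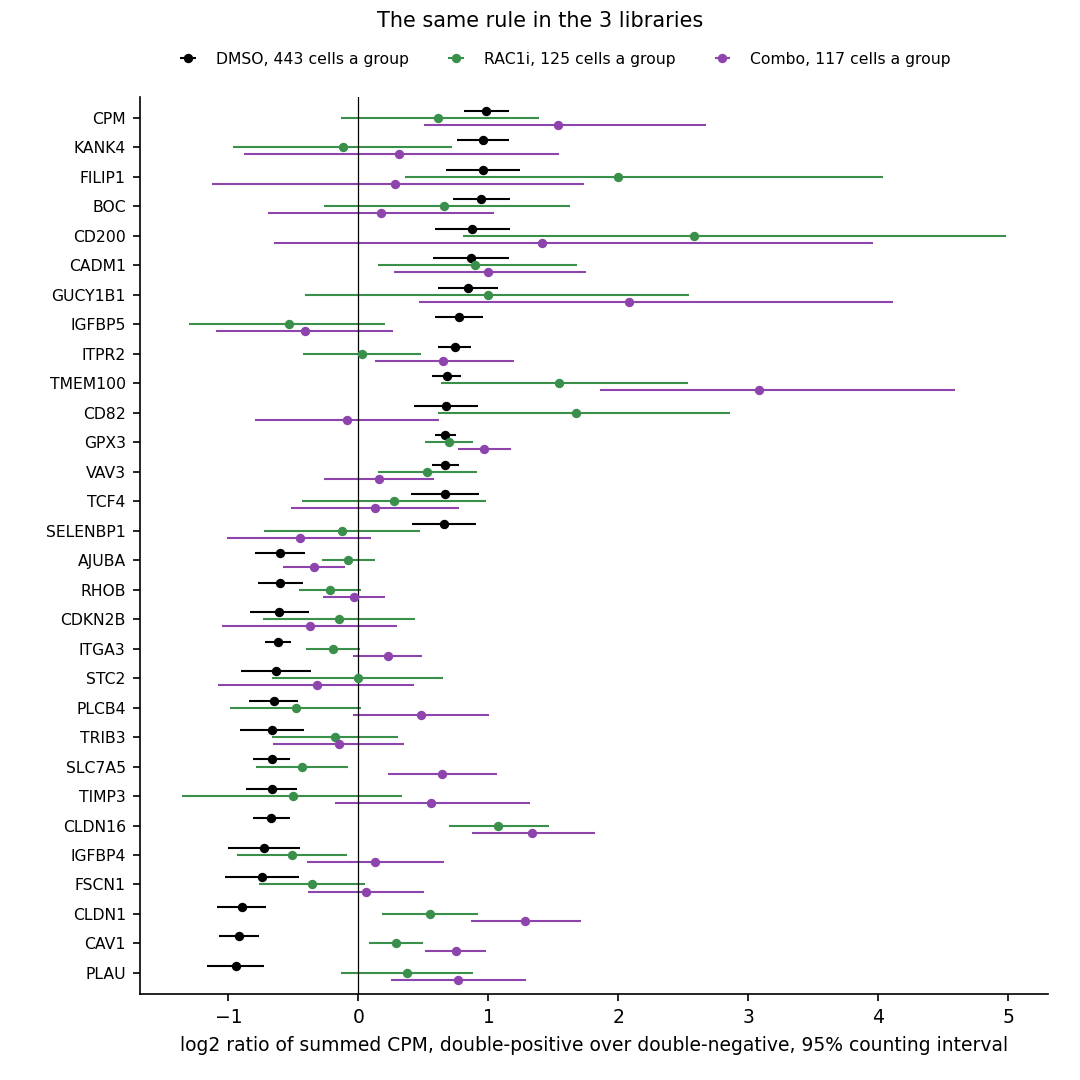
Log2 ratio of summed CPM in double-positive over double-negative cells in DMSO (black, 443 cells per group), RAC1i (green, 125) and Combo (purple, 117) for the 15 highest and 15 lowest genes of DMSO, with 95% counting intervals. GPX3, TMEM100 and CADM1 lie right of 0 in all 3 libraries, and CLDN1, CAV1 and CLDN16 lie left of 0 in DMSO only.

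Tested genes were also grouped by chromosome, with 5927 of them placed. Median log2 ratios ran from −0.04 on the mitochondrial genome and −0.03 on chromosome 6 to 0.03 on chromosome 15. None of the 13 genes of the mitochondrial genome was past the fold. On the other chromosomes, shares of genes past the fold and higher ran from 0 of 120 on chromosome 22 to 3.47% of 202 on chromosome 4. Shares past the fold and lower ran from 0 of 154 on chromosome 15 and 0 of 75 on chromosome 21 to 4.82% of 83 on chromosome 18. These differences were not tested. Over 148 tiles of 20 Mb the tile with SOX2 (chromosome 3, from 180 to 200 Mb, 58 genes) had a median of 0.02 in the matched cells. The tile with ALDH1A1 (chromosome 9, from 60 to 80 Mb, 11 genes) had 0.02 in the matched cells but 0.08 with all cells combined over depth bins, the 33rd and the 3rd highest of the tiles.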

How the data were processed

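The libraries were made with the 10X Genomics 3′ kit v3.1. Per the labels, the authors counted UMIs with Cell Ranger 4.0.0 on GRCh38, and the deposited values are raw counts per gene and barcode, without normalization. The limits on cells follow the methods of the study. The depth limit, the members and all gene lists were chosen with earlier results of these data known. UMIs were summed over the cells of a group and divided by the group's total (CPM), after a draw of equal numbers of cells from each bin of 5000 UMIs (seed 1). DMSO cells gave 13675051 and 13617048 UMIs for the matched groups. Kept cells had medians of 26750 (DMSO), 20989 (RAC1i) and 24953 (Combo) UMIs. Genes were placed with GENCODE 44, which held 36366 of 36601 identifiers, and genes on chromosome Y and XIST were left out. A further gene is not reported here and was left out of all counts. A gene was tested at 20 CPM or more in the higher group and called past the fold at a log2 ratio of 0.32 or more in size.

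Named genes were the 15 highest and 15 lowest ratios, the largest and smallest of each list, the detected ALDH, SOX and stem cell genes, RAC1, EZH2 and the 10 genes ranking most like ALDH1A1 and SOX2. Other list members were named after their values were seen. The 3′ counting is on the sense strand in the kit's design, and reads of overlapping genes cannot be told apart otherwise. The calculations were run on simulated Poisson counts for the double-positive over double-negative comparison over 5932 genes, where 95.0% of genes had their true ratio inside the interval. The simulation held no variation between cells, and the interval assumes such counts. It checks the arithmetic only and cannot show that the intervals suit these cells. Python 3.11.15, numpy 2.4.6, scipy 1.17.1, pandas 2.3.3, and, for other scalings, edgeR 4.0.16 and DESeq2 1.42.0 in R 4.3.3 were used. Alternatives changed the matching, the seed, the UMIs that make a cell positive, the depth and mitochondrial limits, thinning, scaling, the summary over cells and the minimum level.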

Additional observations from a re-analysis of the deposited data

Results flagged for a closer look

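For 5 of the 30 leading genes the ratio of double-positive over double-negative cells was below 1 in DMSO and above 1 in a treated library, with both counting intervals clear of 1. The 30 genes were picked as the most extreme in DMSO, and the share of all genes that turn in this way was not counted. Past the fold were 12.0% of genes higher and 10.7% lower in RAC1i, and 10.7% and 14.1% in Combo. In DMSO these shares were 2.16% and 1.85%, over 443 cells per group against 125 in RAC1i and 117 in Combo. Fewer cells give wider counting error, and its part in the larger shares was not tested. CLDN1 was at 0.54 in DMSO, 1.46 in RAC1i and 2.43 in Combo. CLDN16 was at 0.63 in DMSO, 2.11 in RAC1i and 2.52 in Combo, and CAV1 at 0.53, 1.22 and 1.68. PLAU was at 0.52 in DMSO and 1.70 in Combo, and SLC7A5 at 0.63 in DMSO and 1.56 in Combo. In RAC1i SLC7A5 was below 1 as in DMSO, at 0.74 (0.58 to 0.95), and PLAU was at 1.29 (0.91 to 1.84). Each value comes from 1 library, so the difference between libraries was not tested. With all double-negative cells of a treated library in place of a draw, the ratios of CLDN1 were 1.02 and 1.82, of CLDN16 1.83 and 2.53, of CAV1 1.21 and 1.68, of PLAU 1.17 and 1.54 and of SLC7A5 0.90 and 1.21 in RAC1i and Combo.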

How the results depend on the processing

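No paired analysis was possible because each condition was 1 library. Of 18 alternatives 3 were scalings, which move all genes alike. Over the other 15 the 30 leading genes had the same sign, and 27 were past the fold in each. The exceptions on the log2 scale were IGFBP5 (0.0027 at 30000 or more UMIs), CLDN16 (−0.24 at 10000 or more UMIs) and PLCB4 (−0.31 after thinning). All 15 share double-negative cells with the main match and so give no independent support. Some add other cells, as thinning before calling did with 999 double-negative cells. Of 27 further genes of the text past the fold, 9 were past it in all 18 alternatives. SLPI and TXNRD1 were short of it in 14, CD70 in 10, DLL3, HIST1H1D and MUC1 in 7, CLU, PPP1R14A, SLC7A11 and SLC3A2 in 4, KLK6, KRT7 and DDIT4 in 2 and SRGAP3, CP, ID2, GPRC5A and DDIT3 in 1. The cause was not tested for the values that follow. The genes called were less stable than these 30: with 5 other draws, 130 to 144 genes were higher and 96 to 112 lower, of which 77 to 85 and 70 to 75 were among the 128 and 110. Calling both genes from 2 or more UMIs left 540 double-positive cells, with 265 genes higher and 180 lower. Thinning cells to 20000 UMIs before calling left 963, with 78 and 53. The counts were 233 and 202 at 30000 or more UMIs, 35 and 42 at a minimum of 50 CPM, and 2079 and 1778 with no minimum level, where 15631 genes were compared. Lower genes numbered 63 without matching and 66 at 10000 or more UMIs. DESeq2 and TMM scaling shifted all log2 ratios by 0.0061 and −0.0059.

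Medians of several lists, large and small, moved past their interval. This interval was read from the ordered log2 ratios of a list's members, so it covers the spread between genes and not counting error. For the smallest lists it ran from the lowest to the highest member. The G2 and mitosis median was 0.0611 with all cells combined, 0.0629 with bins of 2500 UMIs, 0.2444 without matching, 0.0860, 0.0584, 0.0684 and 0.0920 with other draws, and 0.1407 and 0.0922 at 10000 and 30000 or more UMIs. The nuclear respiratory chain median was 0.0188 with all cells combined, 0.0073 with bins of 2500 UMIs, −0.0245 without matching, 0.0035, 0.0074, 0.0078 and 0.0102 with other draws, 0.0007 with 2 or more UMIs, −0.0066 and 0.0066 at 10000 and 30000 or more UMIs, −0.0036 at 10% mitochondrial UMIs and 0.0041 after thinning. The ribosomal protein median was 0.0540 without matching, 0.0228, 0.0241 and 0.0107 with other draws, 0.0227 with 2 or more UMIs, 0.0006 at 10000 or more UMIs, 0.0224 at 10% mitochondrial UMIs and 0.0068 after thinning. Without matching, the S phase median was −0.0610 (−0.0688 at 10000 or more UMIs), that of mitochondrial mRNAs −0.1530 and that of epithelial markers −0.0688. With 2 or more UMIs, the median was 0.0582 for the SOX family, 0.0265 for mitochondrial mRNAs (0.0308 at 10000 or more UMIs) and 0.0744 for chemokines. The histone median was 0.0256 with bins of 2500 UMIs, WNT −0.0597 at 30000 or more UMIs and metallothioneins −0.3119 after thinning.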

Other observations

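The genes that ranked most like ALDH1A1 or SOX2 were found over the matched cells themselves, so their ratios between double-positive and double-negative cells are a description of the same data. PGM2L1, which makes glucose 1,6-bisphosphate, was at 203 and 138 CPM in double-positive and double-negative cells (ratio 1.47, 1.39 to 1.56), and at 207, 174, 160 and 148 CPM in double-positive, ALDH1A1 only, SOX2 only and double-negative cells of the same depth. RAB11FIP4, an effector of RAB11 in membrane recycling, was at 240 and 171 CPM (1.40, 1.33 to 1.48). IL1R1, the receptor for interleukin 1, was at 86.6 and 62.3 CPM (1.39, 1.27 to 1.52), TSC22D1, a leucine zipper protein induced by TGF-beta, at 98.9 and 70.9 CPM (1.40, 1.28 to 1.52) and SRGAP3 at 43.8 and 30.5 CPM (1.43, 1.26 to 1.63). SERF2, NPC2 and PNISR were not past the fold, with log2 ratios of 0.13, 0.22 and 0.21. Among the cluster genes, ID2, an inhibitor of basic helix-loop-helix factors, was at 81.3 and 60.4 CPM (1.35, 1.23 to 1.47), and CP, the copper-carrying ferroxidase ceruloplasmin, at 419 and 307 CPM (1.37, 1.31 to 1.42).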
